A study of Saccharomyces cerevisiae with 8 samples.

Results

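The genes for the subunits and transcription factors of RNA polymerases I and III were followed in budding yeast (Saccharomyces cerevisiae) that lacked the tRNA methyltransferase Trm2 or had it, with and without the drug hygromycin B. The set was a list of 38 gene names, and all 38 were found among the 7127 features of the deposited expression table. It held 7 subunits found only in RNA polymerase I, 9 initiation factors of that enzyme, 3 subunits shared between polymerases, 10 subunits found only in RNA polymerase III, 6 subunits of the factor TFIIIC, 2 of the factor TFIIIB, and the repressor gene MAF1. HMO1, a protein of the ribosomal DNA, is counted among the 9 initiation factors throughout. Poly(A) RNA was sequenced from the haploid laboratory strain BY4741 (WT) and from a Trm2 knockout of it (KO). Trm2 makes 5-methyluridine at position 54 of tRNAs, and hygromycin B is an aminoglycoside that inhibits the translocation step of translation elongation. The 4 groups were KO with 50 µg/mL hygromycin B, WT with 50 µg/mL hygromycin B, KO without the drug and WT without it, each with 2 libraries that the series design calls biological duplicates. Below, treated means grown with hygromycin B and untreated means grown without it. All cultures were in the rich medium YPD at the same temperature. The KO cultures also had 200 µg/mL Geneticin, which the WT cultures are not said to have had, and treated cultures were collected at an optical density of 0.4 rather than 0.6 to 0.8. The knockout and its Geneticin cannot be told apart in these groups, nor can the drug and the density at harvest. The sources used here do not say how many knockout clones were used.

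RNA polymerase I transcribes only the ribosomal DNA repeats, and RNA polymerase III makes 5S rRNA, tRNAs and other short RNAs. Together they account for most RNA synthesis in growing yeast, and both are shut down when nutrients run out or growth is stressed. RNA polymerase I is brought to its promoter by the upstream activating factor, the core factor and Rrn3, which binds the enzyme and makes it competent to start. RNA polymerase III is brought to its genes by TFIIIC, which recognises the promoter inside the gene, and by TFIIIB, which TFIIIC places upstream of it. Maf1 binds RNA polymerase III and represses it when it is dephosphorylated. The values below are mRNA levels of these proteins' genes, and neither polymerase activity nor protein was measured.

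Levels are given as normalised FPKM, which is the authors' FPKM (fragments mapped to a gene, scaled by its transcript length and by the fragments mapped in the library) divided by 1 factor per library that sets the median gene equal across libraries. FPKM is a level per length, so levels of different genes can be set side by side, with a limit for short ones. The member genes ran from 213 bases (RPC10) to 4995 bases (RPA190), and RNA under 200 bases was removed before sequencing. Whether this lowered the levels of the shortest members was not tested. RNA was taken from whole cultures, so less RNA of a gene per cell and fewer cells with that RNA cannot be told apart. Each library was scaled to its own total, so a change in the total mRNA per cell would not be seen. FPKM sums were 1171274 to 1654849 per library, and the factors ran from 0.611 to 1.44. Features with ribosomal DNA names took 2.01% to 19.3% of each sum, and their share was over 10% in 3 libraries, namely treated KO 2, untreated KO 1 and untreated WT 1. Duplicates had Pearson's r of 0.984 to 0.989 across genes on the log2 scale. TRM2 itself was listed at 0 in all 4 KO libraries, against 158 and 152 normalised FPKM in treated WT and 116 and 122 in untreated WT. Of the auxotrophic markers of BY4741, the fully deleted URA3, LEU2 and MET17 had 0 in all 8 libraries. Of the mating-type genes, STE2, the receptor made by a cells, had 233 to 708 normalised FPKM and STE3, the one made by alpha cells, 2.4 to 5.8. The a-factor genes MFA1 and MFA2 were listed at 0, and HIS3, which is deleted in part in this strain, was above 0 in every library. All 38 members had a value above 0 in every library, and all passed the filter of a mean FPKM of at least 1.

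Many genes for the machinery of both enzymes carry a promoter element named after them, PAC (polymerase A and C), which is bound in yeast by the repressors Tod6 and Dot6. It is often found next to a second element, RRPE, bound by Stb3. The promoter of each member, taken as 250 bases before to 50 bases after its start codon, was read from the RefSeq genome of S. cerevisiae S288C (R64) and searched on both strands for the PAC core GATGAG and the RRPE core AAAATTTT. The windows below are examples from members of several complexes and do not show every member that holds these elements. UAF30, whose promoter holds both cores, is among those not printed. Each is on the strand of its gene, 5′ to 3′, with the cores in capitals, and CTCATC is the PAC core read from the other strand.
RPA190 (chrXV:960782-960837, plus strand): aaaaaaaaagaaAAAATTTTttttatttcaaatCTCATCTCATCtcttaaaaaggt
RPA43 (chrXV:960319-960376, minus strand): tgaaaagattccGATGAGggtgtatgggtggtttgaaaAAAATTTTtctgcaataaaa
RPA34 (chrX:140304-140344, plus strand): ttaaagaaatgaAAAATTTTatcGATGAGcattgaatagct
RPA49 (chrXIV:182721-182765, minus strand): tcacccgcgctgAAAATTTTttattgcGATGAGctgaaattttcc
RET1 (chrXV:733558-733598, minus strand): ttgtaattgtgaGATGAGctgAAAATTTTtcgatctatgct
RPC25 (chrXI:176646-176687, minus strand): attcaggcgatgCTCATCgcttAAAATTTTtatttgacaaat
RRN3 (chrXI:208031-208090, plus strand): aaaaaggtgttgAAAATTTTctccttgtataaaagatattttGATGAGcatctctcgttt
RRN11 (chrXIII:191929-191968, minus strand): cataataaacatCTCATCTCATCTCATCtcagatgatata
RPA190 and RPA43 are divergent neighbours whose coding sequences lie 804 bases apart, so both windows come from 1 intergenic region. In RPA190 and RRN11 the PAC core is repeated, each copy overlapping the next by a single base.

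The PAC core was found in 23 of the 38 promoters (60.5%), against 1222 of 6001 promoters searched in the same way (20.4%). The RRPE core was found in 14 (36.8%), against 9.03% of all promoters, and each of those 14 also held a PAC core, against 4.38% of all promoters with both. Matches followed the complexes. The PAC core was in 6 of 7 RNA polymerase I subunit genes, 8 of 10 RNA polymerase III subunit genes and 6 of 9 RNA polymerase I initiation factor genes, but in 1 of 6 TFIIIC genes, neither TFIIIB gene and not in MAF1. The only match in RRN9 overlaps its start codon. The core of the stress response element, AGGGG, was in 7 member promoters (18.4%) and in 21.6% of all promoters, and both TFIIIB genes held it, BRF1 before its start codon and BDP1 only past it, inside the coding sequence. The only match in RPC31 is also past the start codon. A match is a description of the sequence and was not tested as a binding site.

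Levels differed widely between members and kept much of their order across groups. HMO1, an HMG-box protein of the ribosomal DNA, was the highest of the 38 in every group, at 863 and 821 normalised FPKM in treated KO, 899.7 and 1022 in treated WT, 807 and 850.1 in untreated KO and 848 and 876 in untreated WT. RPA34 and the shared subunit RPC40 ranked 2 and 3 in every group by group mean. The largest subunits, RPA190 and RPO31, had the lowest mean of their enzyme's own subunits in every group, with RPO31 at 56.7 and 53.7 in untreated KO and 47.1 and 51.3 in untreated WT. At the foot of the order in most groups stood the TFIIIC subunit TFC8 and the RNA polymerase I factors RRN7 and RRN5. RRN5 ranked 33 in treated KO, 38 in treated WT and 36 in both untreated groups. The widest gaps in rank between the treated groups were those of RRN3, which ranked 26 in treated KO and 9 in treated WT, and of UAF30, which ranked 31 in treated KO and 19 in treated WT. In the untreated groups RRN3 ranked 24 in KO and 15 in WT, and UAF30 33 in KO and 28 in WT.

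**Figure D1:**
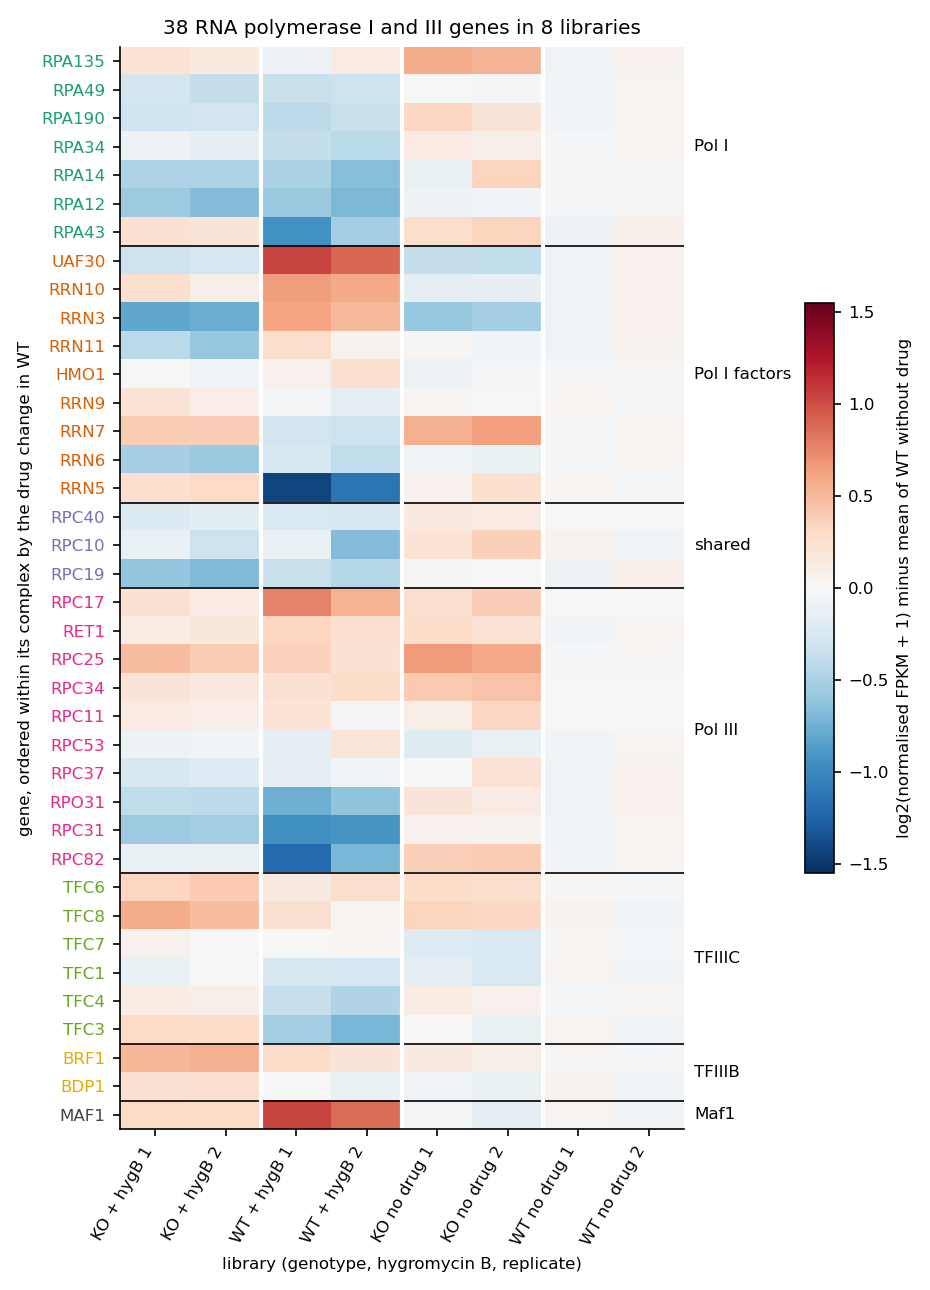
Each row is 1 of the 38 genes and each column 1 library; colour gives log2(normalised FPKM + 1) minus the mean of the untreated WT libraries, and lines part the complexes. The deepest blue is RRN5 and the deepest reds are MAF1 and UAF30, all in treated WT 1, while RRN3 is blue in both KO groups and red in treated WT, and RPC25 and RRN7 are red in untreated KO.

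Differences were tested with limma on log2(normalised FPKM + 1) over 6439 genes in 1 fit of all 8 libraries, and a gene is called here when its Benjamini-Hochberg adjusted p is under 0.05. Log2 changes are on that scale, which understates the change of low genes, and each is given with its standard error (SE). Directions are relative to the median gene, because other scalings move all genes together. On the deposited FPKM, the all-gene median was -0.26 for KO against WT without the drug, 0.61 for the drug in WT, 0.36 for the drug in KO and -0.53 for KO against WT with the drug, against 0.03, 0.02, -0.02 and -0.03 after normalisation. With TPM those medians were -0.19, 0.40, 0.26 and -0.35. Counts of higher and lower members shift with that median, so both splits are printed beside each count, and the ratio of genes within a library, which a scaling by 1 factor per library does not change, is given for the main findings.

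In WT, hygromycin B came with higher mRNA of the negative regulator MAF1 and of several RNA polymerase I initiation factors, and with lower mRNA of particular subunits of both enzymes and of the initiation factor RRN5. Of the 38 members, 27 were called, 10 higher and 17 lower, where 78.8% of all genes tested were called, 40.4% higher and 38.4% lower. The members' share called (27 of 38) was thus close to that of all genes. Only RRN5 was called at 2-fold or more, where 29.3% of all genes were. The median log2 change of the 38 was -0.09, against 0.02 for all genes. Over all genes, 72.0% of the calls were higher with TPM and 85.6% with FPKM as deposited. The split of the members was 14 higher and 3 lower with TPM, 18 and 7 with ribosomal DNA names removed before rescaling to 1 total per library, and 5 and 0 with FPKM as deposited. Without the 3 libraries of high ribosomal DNA share it was 5 and 13.

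MAF1 had 115 and 101 normalised FPKM in treated WT, against 56.7 and 53.8 in untreated WT, a 1.94-fold higher level (log2 change 0.95, SE 0.08, limma adjusted p = 3.71e-05). UAF30, a subunit of the upstream activating factor, stood at 118 and 106 in treated WT and 54.3 and 59.7 in untreated WT (log2 change 0.97, SE 0.07, adjusted p = 2.71e-05). Both genes were at nearly the same level as each other in either condition and their groups did not overlap. RRN3 reached 185 and 171 in treated WT, against 116 and 126 in untreated WT (1.47-fold, log2 change 0.56, SE 0.06, adjusted p = 0.000216). RRN10, another subunit of the upstream activating factor, had 139 and 133 in treated WT and 84.6 and 92.5 in untreated WT (1.53-fold, log2 change 0.61, SE 0.07, adjusted p = 0.000225). RPC17, which with RPC25 forms the stalk of RNA polymerase III, had 156 and 133 in treated WT and 91.0 and 91.0 in untreated WT (1.58-fold, log2 change 0.66, SE 0.09, adjusted p = 0.000479). The calls of these 5 genes held in all 20 alternative settings, FPKM as deposited among them.

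The fall of RRN5 was the largest among the members. RRN5, also a subunit of the upstream activating factor, had 12.5 and 15.5 normalised FPKM in treated WT against 35.9 and 34.4 in untreated WT, 2.42-fold lower (log2 change -1.28, SE 0.11, limma adjusted p = 5.35e-05), a call that held with TPM and ended with FPKM as deposited. Within this 1 factor, UAF30 and RRN10 thus rose and RRN5 fell, while the fourth protein of it on the list, RRN9, had 87.9 and 80.3 in treated WT and 90.8 and 87.7 in untreated WT and was not called. Of the core factor, RRN6 and RRN7 were called lower and RRN11, at 120.5 and 103 in treated WT and 95.3 and 103 in untreated WT, was not called. The ratio of UAF30 to RRN5 within a library, on the log2 scale, was 3.24 and 2.78 in treated WT against 0.60 and 0.79 in untreated WT.

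Of the 7 RNA polymerase I subunit genes 6 were called lower in treated WT and none higher, where 38.4% of all genes were called lower. Their median log2 change was -0.39. With ribosomal DNA names removed the split was 1 higher and 2 lower, with TPM none was called and the median was 0.01, and with FPKM as deposited the median was 0.22. Relative to the median of all genes it was -0.45 to -0.39 in every scaling. RPA43, the stalk subunit that Rrn3 binds, had 144 and 192 normalised FPKM in treated WT and 261 and 293 in untreated WT (log2 change -0.73, SE 0.13, limma adjusted p = 0.00196). Its duplicates in treated WT lay further apart than those of most members. RPA12, the subunit for RNA cleavage and proofreading, had 143 and 132 in treated WT and 210.3 and 217 in untreated WT (log2 change -0.63, SE 0.06, adjusted p = 0.000108). RPA135, the second-largest subunit, was the exception, with 129 and 149.7 in treated WT and 132 and 144 in untreated WT, and its groups overlapped.

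RNA polymerase III subunits split in WT, 4 of 10 called higher and 3 lower, where 40.4% and 38.4% of all genes were. With TPM the split was 5 and 2, and with FPKM as deposited 1 and 0. The lower ones were the largest subunit and members of the initiation subcomplex. RPC31 had 214 and 221 normalised FPKM in treated WT and 402 and 429.8 in untreated WT (1.91-fold lower, log2 change -0.93, SE 0.05, limma adjusted p = 7.23e-06). RPC82 had 44.0 and 62.1 in treated WT and 99.1 and 106 in untreated WT (log2 change -0.96, SE 0.14, adjusted p = 0.000831). RPO31 had 28.6 and 31.5 in treated WT and 47.1 and 51.3 in untreated WT (log2 change -0.69, SE 0.07, adjusted p = 0.000113), a call that ended with TPM. RPC34, which forms 1 subcomplex with RPC82 and RPC31, went the other way, with 121 and 124 in treated WT and 102 and 102 in untreated WT (log2 change 0.26, SE 0.04, adjusted p = 0.00126). So did RET1, the partner of RPO31 in the catalytic core, with 72.4 and 68.2 in treated WT and 55.3 and 59.2 in untreated WT (log2 change 0.29, SE 0.06, adjusted p = 0.00341), and RPC25, with 92.3 and 84.8 in treated WT and 70.9 and 73.3 in untreated WT (log2 change 0.29, SE 0.06, adjusted p = 0.00416). The within-library log2 ratio of RET1 to RPO31 was 1.34 and 1.11 in treated WT against 0.23 and 0.21 in untreated WT.

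Among TFIIIC subunits 3 of 6 were called lower and 1 higher in treated WT, where 38.4% and 40.4% of all genes were. TFC3, the largest subunit, which binds the B box of tRNA genes, had 28.5 and 25.1 normalised FPKM in treated WT and 42.8 and 40.5 in untreated WT (log2 change -0.62, SE 0.08, limma adjusted p = 0.000334). TFC4, the subunit that recruits TFIIIB, had 32.2 and 30.0 in treated WT and 41.4 and 42.1 in untreated WT (log2 change -0.41, SE 0.05, adjusted p = 0.000396). With FPKM as deposited the value for TFC4 turned to 0.19, and with TPM or with ribosomal DNA names removed it was not called. The subunit called higher was TFC6, with 40.7 and 44.9 in treated WT and 37.3 and 36.5 in untreated WT. With TPM the TFIIIC split was 2 higher and 0 lower. Of the TFIIIB genes, BRF1 was called higher and BDP1, at 121 and 112 in treated WT and 124 and 116 in untreated WT, was not called.

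**Figure D2:**
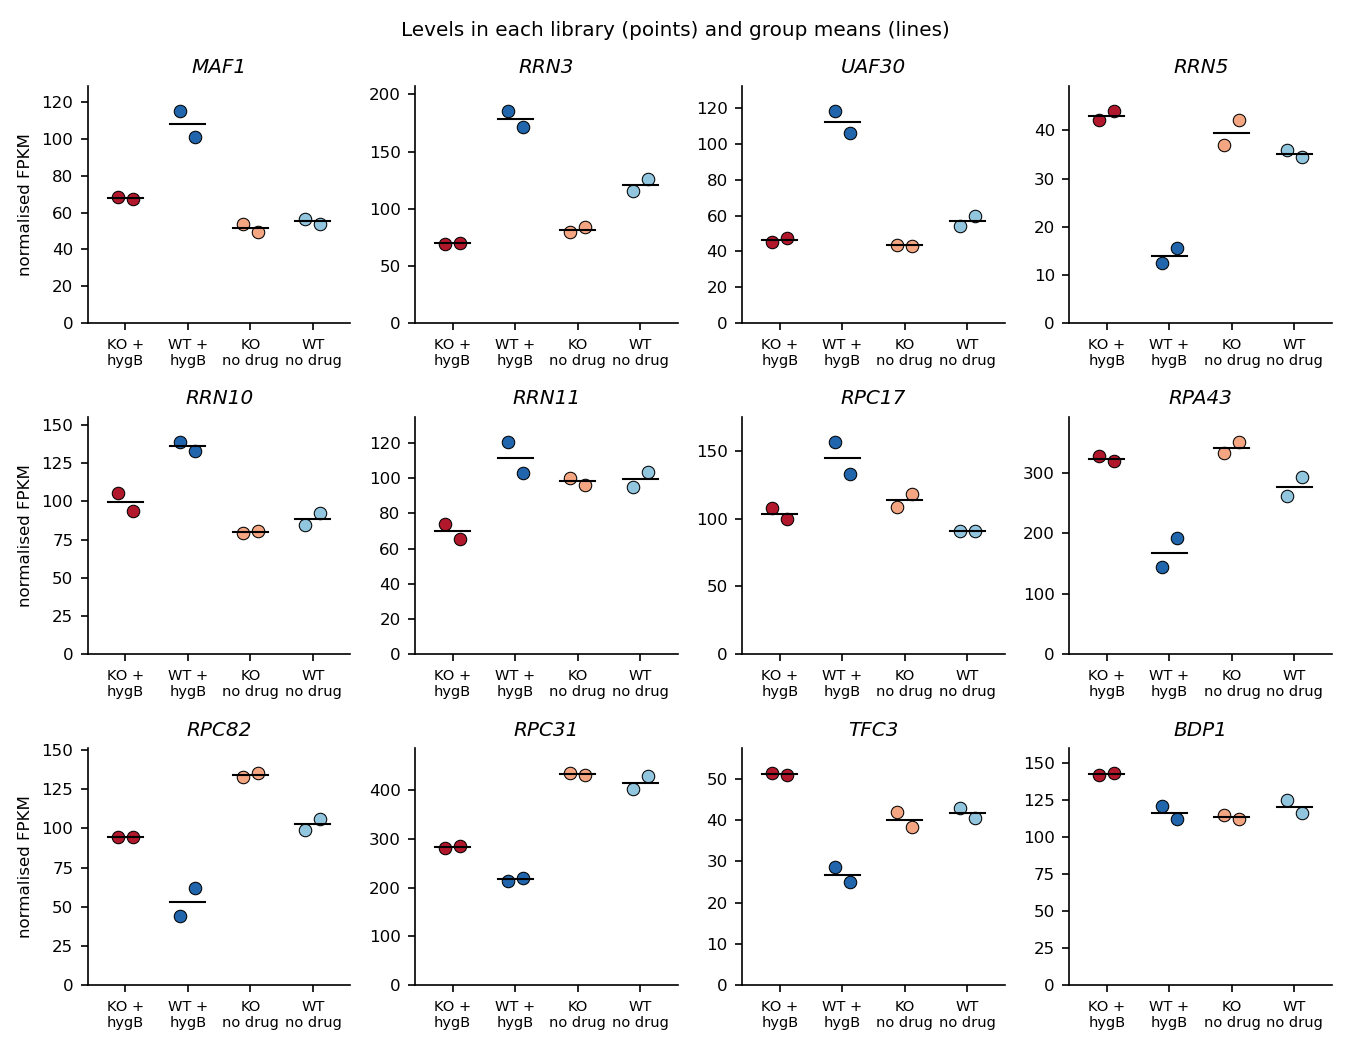
Points are normalised FPKM in each library and lines the mean of the 2 libraries of a group, for 12 members. The treated WT libraries stand above all others for MAF1, RRN3, UAF30, RRN10 and RPC17 and below all others for RRN5, RPA43, RPC82, RPC31 and TFC3.

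In KO, hygromycin B came mostly with lower mRNA of polymerase subunits and with slightly higher mRNA of TFIIIB and MAF1. Of the 38 members 24 were called, 6 higher and 18 lower, where 43.1% of all genes were called, 20.9% higher and 22.3% lower. The members' share was above that of all genes, a difference that was not tested. No member was called at 2-fold or more, against 2.28% of all genes. The median log2 change of the members was -0.16, against -0.02 for all genes. Over all genes, 90.5% of the calls were higher with TPM and 85.9% with ribosomal DNA names removed. With FPKM as deposited 1.63% of all genes were called. The split of the members was 6 higher and 0 lower with TPM, 12 and 6 with ribosomal DNA names removed and 0 and 0 with FPKM as deposited. Without the 3 libraries of high ribosomal DNA share, which leaves 1 library in each KO group, no member was called. The count also fell without any 1 of the KO libraries, as did that of all genes.

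All 7 RNA polymerase I subunit genes had a negative log2 change in KO and 6 were called, where 22.3% of all genes were called lower. Their median was -0.37, which turned to 0.04 with FPKM as deposited. Relative to all genes it was -0.34 to -0.27 in every scaling, though none of the 7 was called with TPM or with FPKM as deposited. RPA190, the largest subunit, had 86.6 and 87.4 normalised FPKM in treated KO and 134 and 123 in untreated KO (log2 change -0.56, SE 0.06, limma adjusted p = 0.00104). RPA12 had 145 and 133 in treated KO and 202 and 207 in untreated KO (log2 change -0.55, SE 0.06, adjusted p = 0.00131). RPA43, the subunit with the widest gap in WT, was close in both groups, with 327 and 319 in treated KO and 334 and 350.4 in untreated KO, and was not called. RPC19, a subunit shared by both enzymes, had 223 and 211 in treated KO and 345 and 342 in untreated KO (log2 change -0.66, SE 0.07, adjusted p = 0.00105). The feature YNL114C overlaps RPC19 on the other strand and had 504 to 878 normalised FPKM, and since the strand setting of the counting was not given in the sources used here, the reads of the pair cannot be told apart.

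RNA polymerase III subunits were called lower in 6 of 10 cases and higher in none, where 22.3% and 20.9% of all genes were. Their median log2 change was -0.22. That median was 0.01 with ribosomal DNA names removed, 0.08 with TPM and 0.19 with FPKM as deposited, and relative to all genes it was -0.20 to -0.18 over the scalings. RPC31 had 282 and 286 normalised FPKM in treated KO and 435 and 433 in untreated KO (log2 change -0.61, SE 0.05, limma adjusted p = 0.000541). RPO31 had 37.2 and 36.9 in treated KO and 56.7 and 53.7 in untreated KO (log2 change -0.56, SE 0.07, adjusted p = 0.00171). RPC34, which was called higher in treated WT, was called lower here, with 117 and 113 in treated KO and 136 and 138 in untreated KO (log2 change -0.25, SE 0.04, adjusted p = 0.00509), although its value turned to 0.05 with TPM and 0.15 with FPKM as deposited. Of the initiation factors of RNA polymerase I, RRN3 and the core factor genes RRN6, RRN7 and RRN11 were called lower, though not with TPM or FPKM as deposited. RRN3, which was called higher in treated WT, had 68.7 and 70.4 in treated KO and 79.7 and 83.6 in untreated KO. RRN6 had 37.4 and 36.0 in treated KO and 51.6 and 50.4 in untreated KO (log2 change -0.46, SE 0.06, adjusted p = 0.00215). RRN11 had 74.1 and 65.7 in treated KO and 100.3 and 96.3 in untreated KO (log2 change -0.49, SE 0.09, adjusted p = 0.00816), and its call ended without treated KO 2 (adjusted p = 0.0572). RRN5, which fell most in WT, had 42.2 and 43.9 in treated KO and 36.9 and 42.1 in untreated KO and was not called, nor was UAF30, with 45.2 and 47.4 in treated KO and 43.9 and 43.3 in untreated KO.

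The members called higher in treated KO were promoter-binding factors and the repressor. BRF1, the TFIIIB subunit that resembles TFIIB, had 121 and 124 normalised FPKM in treated KO and 93.1 and 90.0 in untreated KO (log2 change 0.42, SE 0.05, limma adjusted p = 0.0015). BDP1, its partner in TFIIIB, had 142 and 143 in treated KO and 115 and 112 in untreated KO (log2 change 0.33, SE 0.06, adjusted p = 0.00579). Both were called with TPM and with ribosomal DNA names removed, and neither with FPKM as deposited. TFC7 of TFIIIC had 77.6 and 74.4 in treated KO and 64.1 and 62.7 in untreated KO (log2 change 0.26, SE 0.04, adjusted p = 0.00547). MAF1 had 68.7 and 67.5 in treated KO and 53.9 and 49.6 in untreated KO (1.31-fold, log2 change 0.39, SE 0.08, adjusted p = 0.00814), and its call ended without untreated KO 2 (adjusted p = 0.0517). TFC3 had 51.3 and 51.0 in treated KO and 41.8 and 38.4 in untreated KO (log2 change 0.34, SE 0.08, adjusted p = 0.0137), a call that ended without treated KO 1, treated KO 2 or untreated KO 2 (adjusted p = 0.0696, 0.0729 and 0.079). RRN10 had 105 and 94.0 in treated KO and 79.3 and 80.6 in untreated KO (log2 change 0.31, SE 0.07, adjusted p = 0.0142), a call that ended without treated KO 1, untreated KO 1 or untreated KO 2 (adjusted p = 0.0798, 0.0666 and 0.0603).

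The drug comparisons in KO and in WT share no library. Of the 38 members, 9 had positive and 15 negative changes in both, and 14 had opposite signs. Among the 6439 genes tested these numbers were 2223, 2347 and 1831. Members called in both numbered 19, 15 in the same direction and 4 in opposite directions, which is 79.2% of the members called in KO and 70.4% of those called in WT. Over all genes tested 2422 were called in both, 2098 in the same direction and 324 in opposite ones. These were 87.2% of the calls in KO and 47.8% of those in WT.

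**Figure D3:**
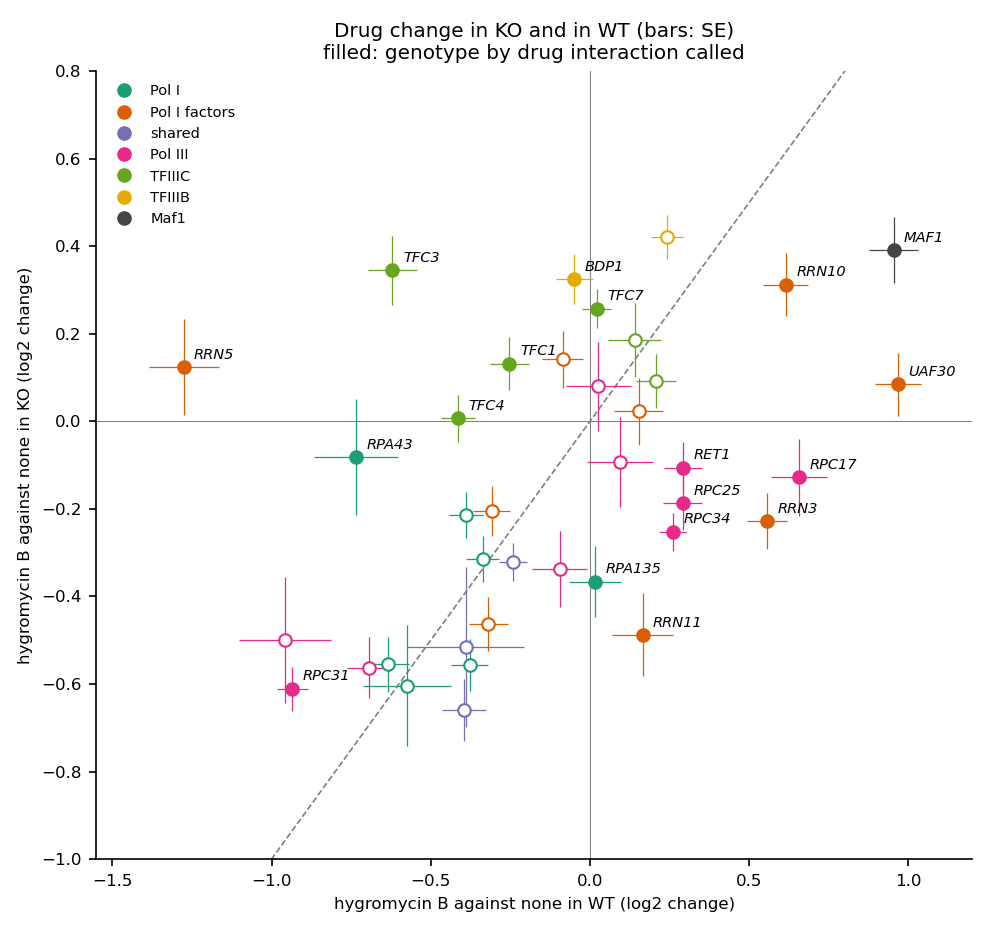
Each point is 1 member, placed by its log2 change with hygromycin B in WT (horizontal) and in KO (vertical), with bars of 1 SE; the dashed line marks equal change and filled, named points are the 18 whose changes differed by the interaction test. RRN5 and TFC3 lie far left of the line, and UAF30, RRN3, RPC17 and MAF1 far right of it.

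The difference between the drug changes was tested as the genotype by drug interaction, the change in KO minus the change in WT. It was called for 18 of the 38 members, 8 positive and 10 negative, where 64.5% of all genes tested were called, 30.6% positive and 33.9% negative, so the members' share was below that of all genes. RRN5 alone passed 2-fold, against 20.2% of all genes. The median was -0.05 for the members and -0.03 for all genes. Over all genes, 38.9% of the calls were positive with TPM and 41.9% with ribosomal DNA names removed. With FPKM as deposited 7.28% of all genes were called. The split of the members was 2 positive and 4 negative with TPM, 5 and 9 with ribosomal DNA names removed, 11 and 11 with quantile normalisation, and 0 and 0 with FPKM as deposited. Without the 3 libraries of high ribosomal DNA share it was 2 and 2. Of the TFIIIC genes 4 of 6 were called positive and none negative, with a median 0.34 to 0.36 above that of all genes in every scaling, while with TPM 1 was called. Of the 7 subunits found only in RNA polymerase II, which are outside the set, 2 were called positive and 0 negative (median 0.21).

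The positive differences were led by RRN5, at 1.40 (SE 0.16, limma adjusted p = 0.000419), and TFC3, at 0.97 (SE 0.11, adjusted p = 0.000468). TFC4 had 0.42 (SE 0.08, adjusted p = 0.00315), TFC1, which binds the A box, 0.38 (SE 0.09, adjusted p = 0.0078), BDP1 0.37 (SE 0.08, adjusted p = 0.00672) and RPC31 0.32 (SE 0.07, adjusted p = 0.00711). These genes were lower in treated WT than in treated KO. The negative differences were led by UAF30, at -0.88 (SE 0.10, adjusted p = 0.000485), RPC17, at -0.79 (SE 0.13, adjusted p = 0.00188), and RRN3, at -0.78 (SE 0.09, adjusted p = 0.000489). RRN11 had -0.65 (SE 0.13, adjusted p = 0.0054) and MAF1 -0.56 (SE 0.11, adjusted p = 0.00401). In RNA polymerase III, RPC34 had -0.51 (SE 0.06, adjusted p = 0.000533), RPC25 -0.48 (SE 0.09, adjusted p = 0.00322) and RET1 -0.40 (SE 0.08, adjusted p = 0.0059). RPA43 had 0.65 (SE 0.19, adjusted p = 0.0209), RPA135 -0.38 (SE 0.12, adjusted p = 0.0253), TFC7 0.24 (SE 0.06, adjusted p = 0.0159) and RRN10 -0.30 (SE 0.10, adjusted p = 0.0365). The call of RPA43 ended without treated KO 1, treated KO 2, untreated KO 1 or untreated WT 2 (adjusted p = 0.0536 to 0.0665), and that of RPA135 without treated KO 1, treated KO 2, untreated KO 1, untreated KO 2 or untreated WT 1 (adjusted p = 0.0518 to 0.0826). The call of TFC7 ended without treated KO 1, untreated KO 2 or untreated WT 1 (adjusted p = 0.0541 to 0.0686), and that of RRN10 without any 1 library but treated KO 1 and untreated WT 2 (adjusted p = 0.0562 to 0.111). Of the 18 calls, those of RRN5, TFC3, UAF30, RPC17, RRN3 and RRN11 held with TPM and all others ended. With ribosomal DNA names removed those of RPC31, RPA43, TFC7 and RRN10 ended. Those of RRN5, TFC3, UAF30 and RRN3 held without the 3 libraries of high ribosomal DNA share.

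With hygromycin B, KO against WT gave the widest spread of members of any direct comparison. Of the 38, 23 were called, 15 higher and 8 lower in KO, where 77.2% of all genes were called, 37.3% higher and 39.9% lower, so the members' share was again below that of all genes. There were 3 called at 2-fold or more, RRN5, RRN3 and UAF30, against 26.1% of all genes. The median log2 change of the members was 0.09, against -0.03 for all genes. Over all genes, 28.7% of the calls were higher with TPM, 34.4% with ribosomal DNA names removed and 16.6% with FPKM as deposited. The split of the members was 4 higher and 9 lower with TPM, 6 and 16 with ribosomal DNA names removed and 1 and 4 with FPKM as deposited. Without the 3 libraries of high ribosomal DNA share it was 6 and 4.

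RRN3 was lower in KO, at 68.7 and 70.4 normalised FPKM in treated KO against 185 and 171 in treated WT (2.54-fold, log2 change -1.34, SE 0.06, limma adjusted p = 5.56e-06). UAF30 was also lower, at 45.2 and 47.4 in treated KO and 118 and 106 in treated WT (2.39-fold, log2 change -1.26, SE 0.07, adjusted p = 1.06e-05). MAF1 had 68.7 and 67.5 in treated KO and 115 and 101 in treated WT (1.58-fold lower, log2 change -0.66, SE 0.08, adjusted p = 0.00024). RRN11 had 74.1 and 65.7 in treated KO and 120.5 and 103 in treated WT (log2 change -0.67, SE 0.09, adjusted p = 0.000656). RRN5 was 2.95-fold higher in KO, at 42.2 and 43.9 in treated KO and 12.5 and 15.5 in treated WT (log2 change 1.56, SE 0.11, adjusted p = 2.55e-05). The calls of these 5 genes held in all 20 alternative settings. In each of them the treated WT libraries were also apart from the untreated libraries of both genotypes, except in RRN11, where treated WT 2 lay just below untreated WT 2.

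Other initiation genes of RNA polymerase I followed in smaller steps. RRN10 had 105 and 94.0 normalised FPKM in treated KO and 139 and 133 in treated WT (log2 change -0.45, SE 0.07, limma adjusted p = 0.00117). RRN7, a TFIIB-like subunit of the core factor, was higher in KO, with 35.4 and 35.0 in treated KO and 21.8 and 21.0 in treated WT (log2 change 0.69, SE 0.06, adjusted p = 5.14e-05), but it was not called with TPM (0.38, adjusted p = 0.093) or with FPKM as deposited (0.20, adjusted p = 0.738). RPA43 was 1.94-fold higher in KO (log2 change 0.96, SE 0.13, adjusted p = 0.000574), and both KO libraries were above both WT libraries. For RNA polymerase III, RPC82 had 94.7 and 94.4 in treated KO and 44.0 and 62.1 in treated WT (log2 change 0.84, SE 0.14, adjusted p = 0.00167). RPC31 had 282 and 286 in treated KO and 214 and 221 in treated WT (log2 change 0.38, SE 0.05, adjusted p = 0.000437), but its value turned to -0.12 with FPKM as deposited and it was not called with TPM or with ribosomal DNA names removed. RPC17 was lower in KO, with 108 and 99.8 in treated KO and 156 and 133 in treated WT (log2 change -0.47, SE 0.09, adjusted p = 0.00264). The calls of RRN10, RPC17, RPA43 and RPC82 held with TPM and ended with FPKM as deposited, and those of RRN10 and RPC17 also ended without the 3 libraries of high ribosomal DNA share, as did that of RPC31.

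TFIIIC and TFIIIB genes were higher in treated KO, with 5 of 6 and 2 of 2 called and none lower. Of all genes 77.2% were called, 37.3% higher and 39.9% lower. The 7 subunits found only in RNA polymerase II, which are outside the set, had 5 called higher and 0 lower here (median 0.21). The medians of TFIIIC and TFIIIB were 0.29 each, and turned to -0.03 each with TPM and to -0.20 and -0.21 with FPKM as deposited. The TFIIIC split was 1 higher and 0 lower with TPM and 2 and 1 with ribosomal DNA names removed, and no TFIIIB gene was called in either. TFC3 had 51.3 and 51.0 normalised FPKM in treated KO against 28.5 and 25.1 in treated WT (1.88-fold, log2 change 0.91, SE 0.08, limma adjusted p = 5.89e-05). TFC4 had 45.1 and 44.6 in treated KO and 32.2 and 30.0 in treated WT (log2 change 0.51, SE 0.05, adjusted p = 0.000148). TFC3 was still called with TPM and TFC4 was not.

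Without the drug, KO and WT were closer. Of the 38 members 13 were called, 9 higher and 4 lower in KO, where 43% of all genes were called, 23.2% higher and 19.8% lower, and the members' share was below it. None passed 2-fold, against 3.49% of all genes. The median log2 change was 0.11 for the members and 0.03 for all genes. Over all genes, 11.4% of the calls were higher with TPM and 19.1% with ribosomal DNA names removed. With FPKM as deposited 2.53% of all genes were called. The split of the members was 0 higher and 2 lower with TPM, 4 and 9 with ribosomal DNA names removed and 0 and 0 with FPKM as deposited. Without the 3 libraries of high ribosomal DNA share, which leaves 1 library in each untreated group, no member was called. The count also fell without any 1 of the 4 untreated libraries, as did that of all genes.

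RRN3 and UAF30 were lower in KO here too. RRN3 had 79.7 and 83.6 normalised FPKM in untreated KO and 116 and 126 in untreated WT (1.47-fold, log2 change -0.56, SE 0.06, limma adjusted p = 0.00121), and UAF30 43.9 and 43.3 in untreated KO and 54.3 and 59.7 in untreated WT (log2 change -0.38, SE 0.07, adjusted p = 0.00754). Both calls held with TPM and ended with FPKM as deposited. RRN7 was higher in KO, with 39.6 and 41.9 in untreated KO and 26.1 and 27.4 in untreated WT (log2 change 0.59, SE 0.06, adjusted p = 0.00075). RPC25 had 114 and 109 in untreated KO and 70.9 and 73.3 in untreated WT (1.54-fold, log2 change 0.62, SE 0.06, adjusted p = 0.000767), and RPC34 136 and 138 in untreated KO and 102 and 102 in untreated WT (log2 change 0.42, SE 0.04, adjusted p = 0.000814). RPA135 had 205 and 199 in untreated KO and 132 and 144 in untreated WT (log2 change 0.55, SE 0.08, adjusted p = 0.00296). Of the 10 RNA polymerase III subunits 4 were called higher and none lower, where 23.2% and 19.8% of all genes were. Their split was 2 and 0 with ribosomal DNA names removed and 0 and 0 with TPM. The calls of RRN7, RPC25, RPC34 and RPA135 held with ribosomal DNA names removed and ended with TPM.

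Calls of smaller differences without the drug ended when single libraries were left out. RPA190 had 134 and 123 normalised FPKM in untreated KO and 104 and 110.3 in untreated WT (log2 change 0.26, SE 0.06, limma adjusted p = 0.0142), and its call ended without untreated KO 1 (adjusted p = 0.0769) or untreated WT 1 (adjusted p = 0.0853). TFC6 had 45.2 and 44.6 in untreated KO and 37.3 and 36.5 in untreated WT (log2 change 0.28, SE 0.06, adjusted p = 0.0132), and its call ended without any 1 of the 4 untreated libraries (adjusted p = 0.0546 to 0.0683). With FPKM as deposited the values of RPA190 and TFC6 turned to -0.04 and -0.01. TFC7 was lower in KO, with 64.1 and 62.7 in untreated KO and 74.7 and 73.2 in untreated WT (log2 change -0.22, SE 0.04, adjusted p = 0.00964), a call that ended without untreated KO 2 (adjusted p = 0.056) or untreated WT 1 (adjusted p = 0.0611). TFC1 had 40.1 and 37.3 in untreated KO and 45.3 and 43.0 in untreated WT (log2 change -0.19, SE 0.06, adjusted p = 0.0467), and its call ended without any 1 of the 8 libraries (adjusted p = 0.0555 to 0.211).

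The genotype comparisons with and without the drug share no library. Members called in both numbered 7, of which 5 had the same direction and 2 opposite ones, which is 30.4% of the members called with the drug and 53.8% of those called without it. Over all genes tested 2315 were called in both, 1848 in the same direction and 467 in opposite ones. These were 46.6% of the calls with the drug and 83.5% of those without it.

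Ratios between members within a library do not change with a scaling by 1 factor per library, unlike with quantile normalisation. They are made from the same values of the members described above, several of which moved in opposite directions. That treated WT stood apart in them restates those differences and is no separate evidence. On the log2 scale, MAF1 over the mean of the RNA polymerase III subunits was -0.75 and -0.76 in treated KO, 0.11 and -0.12 in treated WT, -1.34 and -1.51 in untreated KO, and -1.01 and -1.15 in untreated WT. RRN3 over the mean of the RNA polymerase I subunits was -1.52 and -1.43 in treated KO, 0.19 and 0.03 in treated WT, -1.64 and -1.62 in untreated KO, and -0.91 and -0.87 in untreated WT. Both regulators were thus highest relative to their enzyme in treated WT, in each library of it. The ratio for MAF1 was above that of the same genotype's untreated libraries in both treated groups, and that for RRN3 was lower in both KO groups than in both WT groups. UAF30 over RRN5 was 0.10 and 0.11 in treated KO and 0.25 and 0.04 in untreated KO, a range below that of either WT group.

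Pairs inside the enzymes moved too. RPA43 over RPA190, the neighbours that share the intergenic region printed above, was 1.92 and 1.87 in treated KO, 0.84 and 1.19 in treated WT, 1.32 and 1.51 in untreated KO, and 1.33 and 1.41 in untreated WT. The treated KO libraries were highest and the treated WT libraries lowest. RPC17 over RPC25, the stalk pair of RNA polymerase III, was 0.09 and 0.07 in treated KO, 0.76 and 0.65 in treated WT, -0.07 and 0.12 in untreated KO, and 0.36 and 0.31 in untreated WT. The mean of the RNA polymerase I subunits over that of the RNA polymerase III subunits was 0.78 and 0.74 in treated KO, 0.60 and 0.61 in treated WT, 0.87 and 0.87 in untreated KO, and 0.92 and 0.94 in untreated WT, lower with the drug in both genotypes. TFIIIC over RNA polymerase III subunits was -1.26 and -1.25 in treated KO, above the -1.50 and -1.60 of treated WT, the -1.65 and -1.76 of untreated KO, and the -1.44 and -1.56 of untreated WT. These ratios are given as values without a test.

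**Figure D4:**
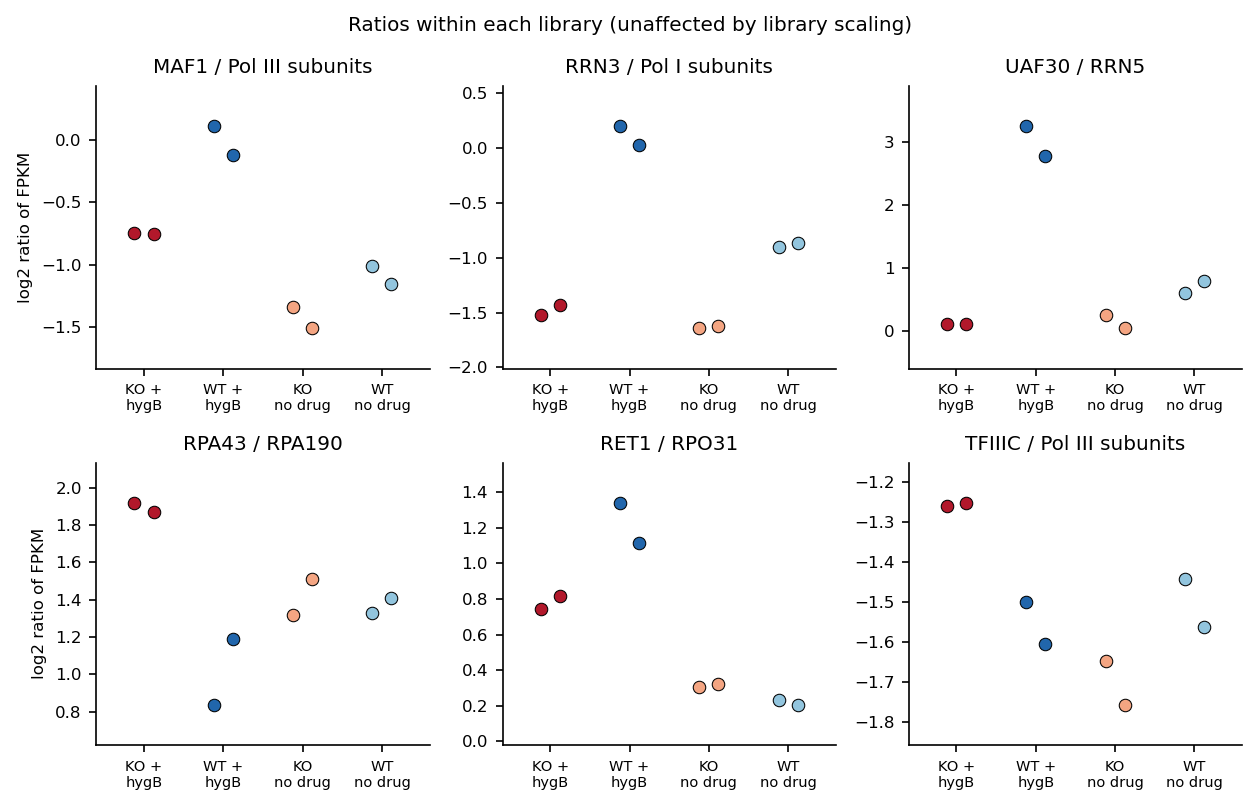
Points are log2 ratios of FPKM within 1 library, by group, where a complex stands for the mean log2 level of its subunits. Treated WT is highest for MAF1, RRN3, UAF30 over RRN5 and RET1 over RPO31 and lowest for RPA43 over RPA190, and treated KO is highest for RPA43 over RPA190 and for TFIIIC.

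Members with and without a PAC core were set side by side for the drug. In KO, the 23 members with a PAC core had a median log2 change of -0.31, with 1 called higher and 16 lower. The 15 without one had a median of 0.12, with 5 called higher and 2 lower. Of all genes 20.9% were called higher and 22.3% lower in KO. The medians with and without the core were 0.09 and 0.52 on the deposited FPKM. Relative to all genes the medians were -0.29 to -0.20 with the core and 0.07 to 0.16 without it over the scalings, whereas the calls were 1 higher and 0 lower against 5 and 0 with TPM, and 4 and 5 against 8 and 1 with ribosomal DNA names removed. Of the 14 that held both PAC and RRPE cores, RPA190, RPA34, RPA49, RET1, RPC25 and RRN3 among them, 12 had a negative change after normalisation. Of all 6439 genes, 3365 had a negative change. The median was -0.24 for the 14 with both cores and -0.46 for the 9 with a PAC core only, of which 6 were negative. In WT the medians were -0.10 with a PAC core and -0.05 without, and the ranges overlapped, from RPC82 at -0.96 to UAF30 at 0.97 with the core and from RRN5 at -1.28 to MAF1 at 0.95 without it. The difference between the sets was not tested. Polymerase subunits made up 16 of the 23 with the core, and TFIIIC and TFIIIB made up 7 of the 15 without it, so the motif and the complex cannot be told apart here.

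**Figure D5:**
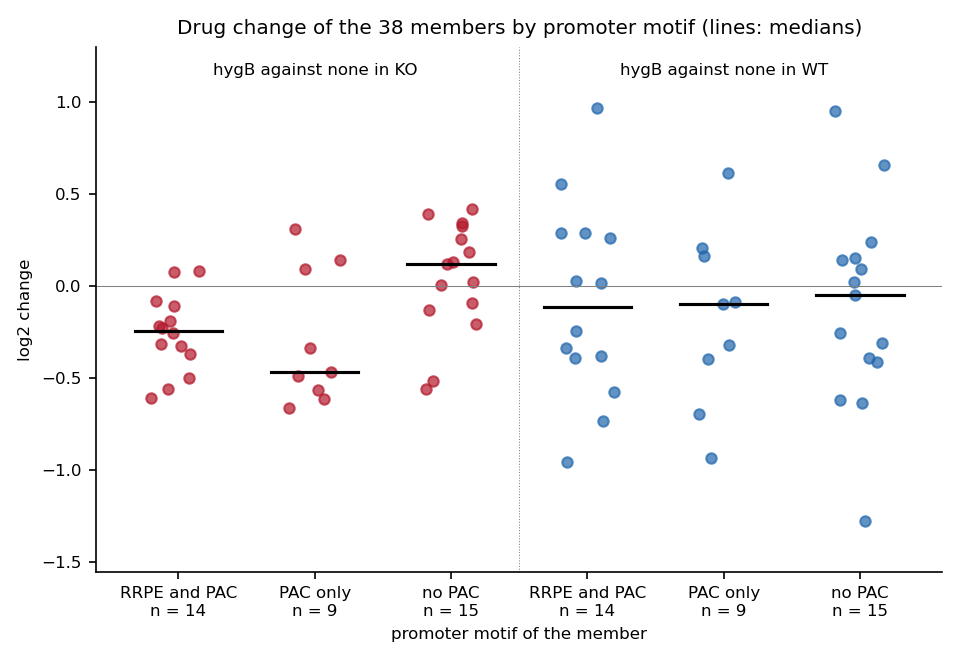
Points are the log2 changes with hygromycin B of the 38 members in KO (left) and WT (right), by the motifs in their promoter window, and lines are medians. In KO 12 of 14 genes with both motifs and 6 of 9 with PAC only are below 0. Of those without PAC, 10 of 15 are above 0 in KO, while in WT each class spans 0.

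Genes outside the set gave a frame for these values. Ribosome biogenesis factors, of which 43 of 47 held a PAC core, had 0 called higher and 33 lower with the drug in KO (median log2 change -0.35). In WT they had 9 higher and 24 lower (median -0.17), and with TPM these splits were 0 and 2 in KO and 13 and 4 in WT. Of all genes, 20.9% were called higher and 22.3% lower in KO, and 40.4% and 38.4% in WT. The share of this list called in KO was thus above that of all genes, a difference that was not tested. The 7 subunits found only in RNA polymerase II had 2 higher and 1 lower in KO (median -0.07) and 2 higher and 4 lower in WT (median -0.20), or 2 and 0 and 2 and 1 with TPM. Of 8 regulators of ribosome biogenesis genes, 7 were called between treated KO and treated WT, where 77.2% of all genes were, 3 higher and 4 lower in KO, or 2 and 4 with TPM. TOD6, a repressor that binds PAC, had 91.9 and 79.9 normalised FPKM in treated KO and 186 and 195 in treated WT (log2 change -1.14, SE 0.08, limma adjusted p = 2.86e-05). DOT6, the other repressor that binds PAC, lay the other way, with 214 and 209 in treated KO and 129 and 191 in treated WT. SFP1, an activator of these genes, was lower in KO like TOD6, with 66.1 and 69.4 in treated KO and 128 and 120.3 in treated WT (log2 change -0.87, SE 0.06, adjusted p = 1.83e-05). ABF1, a general regulatory factor, had 78.6 and 80.7 in treated KO and 19.3 and 19.1 in treated WT (log2 change 2.00, SE 0.06, adjusted p = 1.14e-06), and RAP1, another, 68.1 and 68.5 in treated KO and 26.6 and 31.5 in treated WT (log2 change 1.21, SE 0.09, adjusted p = 3.06e-05), a call that ended with FPKM as deposited.

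Among 9 genes for ribosomal DNA chromatin, termination and elongation, 8 were called between treated KO and treated WT, 6 higher and 2 lower in KO, or 4 and 2 with TPM, with a median of 0.67. This too is set beside the 77.2% of all genes called. REB1, which binds the terminator of RNA polymerase I, had 94.6 and 94.3 normalised FPKM in treated KO and 26.7 and 27.9 in treated WT (log2 change 1.75, SE 0.04, limma adjusted p = 7.08e-07). NET1, a nucleolar protein of the ribosomal DNA, had 80.4 and 84.4 in treated KO and 27.2 and 32.5 in treated WT (log2 change 1.44, SE 0.09, adjusted p = 1.51e-05), a call that ended with FPKM as deposited. NSI1, of the same list, lay the other way, with 96.7 and 98.3 in treated KO and 164 and 164 in treated WT. The 6 common subunits and factors outside the set, SPT15 for TBP and PZF1 for TFIIIA among them, had 3 higher and 2 lower in treated KO than in treated WT, or 1 and 1 with TPM. Of 23 signalling genes, those for TORC1, protein kinase A, casein kinase 2 and the phosphatases that act on Maf1 included, 16 were called with the drug in WT, 4 higher and 12 lower, or 4 and 2 with TPM, where 78.8% of all genes were called. The shares called in the lists of this paragraph were thus near those of all genes in the same comparisons. KNS1, a kinase that acts on RNA polymerase III, had 79.1 and 88.3 in treated WT and 41.1 and 40.7 in untreated WT (log2 change 1.01, SE 0.06, adjusted p = 1.36e-05). MCK1, the kinase that follows it, had 74.9 and 73.2 in treated WT and 158 and 144 in untreated WT (log2 change -1.02, SE 0.06, adjusted p = 7.61e-06), a call that ended with FPKM as deposited. Of the 5 genes for TORC1 on the list, LST8 and TCO89 were higher in treated WT, LST8 with 174 and 167 in treated WT against 70.1 and 74.1 in untreated WT (log2 change 1.23, SE 0.05, adjusted p = 2.68e-06) and TCO89 with 56.1 and 56.5 in treated WT against 31.3 and 31.3 in untreated WT (log2 change 0.83, SE 0.05, adjusted p = 7.91e-06). TOR2, which serves TORC1 and TORC2, was called lower, with 8.42 and 9.17 in treated WT and 12.6 and 12.8 in untreated WT. TOR1, with 10.1 and 10.2 in treated WT and 11.5 and 11.9 in untreated WT, and KOG1, with 18.6 and 21.3 in treated WT and 19.3 and 19.7 in untreated WT, were not called.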

How the data were processed

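Poly(A) RNA of 8 yeast cultures, 2 per group, was sequenced after removal of RNA under 200 bases, oligo-dT selection and depletion of rRNA, per the labels' protocols. Reads were processed, per the submitters' processing notes, with RSEM 1.3.3, STAR 2.7.8a, cutadapt 2.3 and FastQC 0.11.8. The sources used here give no genome build, annotation or strand setting. The deposited values were the authors' FPKM per gene, 1 column per library. No counts were used, and whole-read steps were not found among low values, so the depth is unknown.

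FPKM were divided by a median-ratio factor per library and tested with limma 3.58.1 (R 4.3.3; lmFit, contrasts, eBayes with trend) on log2(value + 1) for the 6439 genes with a mean of at least 1, two-sided, with 4 residual degrees of freedom (6.39 after moderation). Adjusted p is Benjamini-Hochberg over all of them. The procedure was tested on simulated data. Alternatives were other scalings (TPM is FPKM rescaled to 1 total), pseudocounts 0.1 and 5, filters, no trend, a replicate block, fits of the groups compared, and each library left out. Members, lists and tests were chosen with earlier results of these data known. Named with values are up to 6 called members per direction and comparison, by smallest p, and members called against their complex; for other lists, up to 4 genes. The remaining interaction calls and 7 other member results (of RPA43, RPC82, RRN11, RET1, RPC25 and RPC34) were added after their values were seen. So were levels of some members not called and values of TOR1, TOR2, KOG1, DOT6 and NSI1. Promoters were read from the RefSeq R64 genome by locus tag, since no promoter table was used, and 6047 of 7127 features matched.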

Additional observations from a re-analysis of the deposited data

Results flagged for a closer look

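For 18 members the drug change in KO minus that in WT differed from 0 by limma's interaction test (Benjamini-Hochberg adjusted p under 0.05 over all 6439 genes), where 64.5% of all genes did. On the log2 scale the difference was 1.40 for RRN5, 0.97 for TFC3, 0.65 for RPA43, 0.42 for TFC4, 0.38 for TFC1, 0.37 for BDP1, 0.32 for RPC31 and 0.24 for TFC7. It was -0.88 for UAF30, -0.79 for RPC17, -0.78 for RRN3, -0.65 for RRN11, -0.56 for MAF1, -0.51 for RPC34, -0.48 for RPC25, -0.40 for RET1, -0.38 for RPA135 and -0.30 for RRN10. Single outlying libraries could not be looked for, since each group has 2.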

How the results depend on the processing

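The number of members called moved most with the scaling. With FPKM as deposited it was 0 without the drug between genotypes (0 higher, 0 lower), 5 for the drug in WT (5 and 0), 0 for the drug in KO (0 and 0), 5 with the drug between genotypes (1 and 4) and 0 for the interaction (0 and 0). With TPM these were 2 (0 and 2), 17 (14 and 3), 6 (6 and 0), 13 (4 and 9) and 6 (2 and 4). With ribosomal DNA names removed the splits were 4 and 9, 18 and 7, 12 and 6, 6 and 16, and 5 and 9. Without the 3 libraries of highest ribosomal DNA share, an alternative chosen after seeing the data that leaves 1 residual degree of freedom, the counts were 0 (0 and 0), 18 (5 and 13), 0 (0 and 0), 10 (6 and 4) and 4 (2 and 2). Leaving out 1 library at a time gave 7 to 15 (5 to 12 higher, 2 to 3 lower), 25 to 30 (9 to 12, 16 to 18), 14 to 25 (3 to 6, 9 to 19), 19 to 24 (13 to 15, 6 to 9) and 15 to 20 (6 to 11, 8 to 11). The median of the 38 relative to all genes was 0.03 to 0.10, -0.14 to -0.07, -0.18 to -0.12, 0.09 to 0.13 and -0.07 to 0.03 over all settings, in the same order of comparisons. All-gene values with TPM and with FPKM as deposited stand beside each comparison above.

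Of 81 named gene results, 59 lost their call and 5 reversed with FPKM as deposited, where TFC6 (-0.0144) and RPA190 (-0.0373) turned between untreated genotypes, TFC4 (0.19) for the drug in WT, RPC34 (0.15) for the drug in KO and RPC31 (-0.12) between treated genotypes. With TPM 35 lost their call and RPC34 reversed for the drug in KO (0.0484). Calls were lost for 44 without the 3 libraries of highest ribosomal DNA share, 10 with ribosomal DNA names removed, 2 with quantile normalisation, 2 to 9 without 1 library and 1 without the trend, and for 0 with other pseudocounts or filters. The cause was not tested. A fit of only the groups compared was not possible for the interaction. The main fit did not pair samples by replicate number. Deviations of same-numbered libraries correlated at -0.232 to 0.256 over 6 pairs of groups, which cannot settle whether those libraries were handled together. With the replicate block the counts were 12, 27, 24, 22 and 19. There TFC1 between untreated genotypes (limma adjusted p = 0.0616) and RRN10 in the interaction (adjusted p = 0.0522) lost their calls. Without read counts, precision by depth could not be given.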

Other observations

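Some products of the 2 polymerases had values in the table, although RNA without poly(A) was selected against before sequencing, so they are given without a test. The external transcribed spacer feature ETS1-1 of the ribosomal DNA had 246 and 484 normalised FPKM in treated KO, 81.9 and 88.6 in treated WT, 1049 and 369 in untreated KO, and 758 and 342 in untreated WT. SCR1, the RNA of the signal recognition particle and a product of RNA polymerase III, had 569 and 2200 in treated KO, 533 and 447 in treated WT, 3627 and 818 in untreated KO, and 2704 and 250.1 in untreated WT. RPR1, the RNA of RNase P, had 25.6 and 91.6 in treated KO, 29.6 and 29.3 in treated WT, 182 and 35.3 in untreated KO, and 144 and 27.0 in untreated WT. Duplicates lay far apart in every group but treated WT, and in each of those groups the higher library was 1 of the 3 with a high share of ribosomal DNA names. The part of that share in these values was not tested.

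Other features overlap members. YLR140W, on the strand of RRN5, had 6.38 to 15.4 normalised FPKM over the 8 libraries, and YDR157W, on the strand of RPA14, 1.27 to 7.84. YDL151C, which lies over RPC53 on the other strand for 96% of its length, had 240.3 to 300.03, beside 214 to 276 for RPC53 itself.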
